A study of Arabidopsis thaliana with 24 samples.

Results

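The suppressor line S8 was compared with its parent *tt19-8* over all genes, using the 3 libraries named for S8 and the 3 named for *tt19-8*, 6 of the 24 libraries of the series. The libraries were taken by these names. RNA was sequenced from whole *Arabidopsis thaliana* seedlings grown under anthocyanin inductive conditions (AIC): shaking in 3% sucrose for 4 days with 24 h of light per day. All 3 genotypes used here, Col-0, *tt19-8* and S8, had the Col-0 background, and each was given by 3 libraries. The line *tt19-8* carries a T-DNA insertion in *TT19* (AT5G17220), a glutathione S-transferase needed for anthocyanins to accumulate, by a mechanism that is not settled. S8 is a single line recovered after EMS mutagenesis of *tt19-8*, so it is a double mutant, and the mutation credited with its pigment is a nonsense change in *RDR6* (AT3G49500). Other EMS changes that S8 may carry were not analysed here. The lines S1 and S2, from the same mutagenesis and also double mutants, enter only the last comparison. Both carry a nonsense change in *RDR6*, which is early and close to that of S8 in S1 and late in S2. The labels do not say whether replicates were separate cultures, so p-values measure the spread between these libraries.

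Anthocyanins are made from phenylalanine through the phenylpropanoid and flavonoid pathways, and the late steps are switched on by a complex of MYB, bHLH and WD40 proteins. *RDR6* is an RNA-dependent RNA polymerase that copies cleaved transcripts into double-stranded RNA. With *SGS3* and *DCL4* it makes trans-acting siRNAs (tasiRNAs), which are phased small RNAs cut from the TAS transcripts after a microRNA has cleaved them. The tasiRNAs then direct the cleavage of other mRNAs, among them MYB regulators of anthocyanin synthesis (*TAS4*), auxin response factors (*TAS3*) and the HTT genes (TAS1). No small RNAs were measured in these libraries, so only the precursors and the mRNAs are described.

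The change in S8 turns the tryptophan codon at position 299 of *RDR6* into a stop (W299stop). The codon is in coding exon 1 of 2, on the minus strand of chromosome 3 at 18352309 to 18352311 (TAIR10.1), inside a gene that spans 18348974 to 18353673. It leaves 24.9% of the 1196 codons before it. The unmutated sequence around it, from RefSeq TAIR10.1 and on the coding strand (chr3:18352285-18352335), is shown with that codon in capitals.
*RDR6* around codon 299: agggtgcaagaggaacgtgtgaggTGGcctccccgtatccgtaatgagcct

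The steps that *RDR6* serves can be read in the reference sequence, and the sites of the genes that the results turn on are shown here, all from RefSeq TAIR10.1. miR828, on chromosome 4, is shown with its seed (bases 2 to 8) in capitals. Below it stands the stretch of the *TAS4* transcript (chr3:9417809-9417830, minus strand) with which it pairs, where capitals mark bases without a Watson-Crick partner, G:U pairs counted as unpaired.
miR828: tCTTGCTTaaatgagtattcca
*TAS4* site for miR828: tggaatactcatttGagcaaga
The *TAS4* small RNA window is the stretch of 21 bases, on the strand opposite the transcript (chr3:9417736-9417756), that pairs best over *PAP1*, *PAP2* and *MYB113*, which encode MYB activators of anthocyanin genes. Their matching stretches differ by 0, 1 and 2 unpaired bases.
*TAS4* window: gtgaaggatcgaggtcgaggc
*PAP1* site: gcctcgacctcgatccttcac
*PAP2* site: gcctcgacctcgatccttcTc
*MYB113* site: gcctcgGcctcgatccttcTc
The same search in *TAS3* (chr3:5862205-5862225, plus strand) gave a window that leaves 1 base of *ARF3* and of *ARF4* unpaired.
*TAS3* window: tttcttgaccttgtaagaccc
*ARF4* site: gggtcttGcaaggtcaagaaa
In *TAS1C* (chr2:16537835-16537855, minus strand) the window left 2 bases unpaired in each of *HTT1*, *HTT2* and *HTT4*.
*TAS1C* window: ctaagtccaacatagcgtatt
*HTT1* site: aaCacgAtatgttggacttag
*HTT2* site: aTCacgctatgttggacttag
*HTT4* site: aaCacActatgttggacttag
These are matches of letters in the reference and not measured cleavage sites.

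The S8 libraries held 31.6, 26.8 and 33.56 M counts and the *tt19-8* libraries 36.3, 43.04 and 37.76 M, within the 25.8 to 73.4 M of the series. A detection floor of 3 counts equals 0.103 CPM in S8 and 0.0783 CPM in *tt19-8*, a limit of counting error only. Expression is given below in CPM, the count divided by the TMM-scaled library size in M, in the order of replicates 1, 2 and 3. Replicate 3 stood apart in *tt19-8*. Its squared deviation from replicates 1 and 2 was 14.6 and 15.6 times that of counting noise (median over genes). This ratio was 4.58 between those 2 libraries and 5.85 to 8.75 in S8. The summed level of 30 low-oxygen response genes was 3807, 3730 and 15660 CPM in *tt19-8* and 5019, 5138 and 11970 CPM in S8. Replicate 3 was thus the high library in both genotypes, while in Col-0 (3456, 3313 and 2048 CPM) it was the lowest. Results were therefore also computed without replicate 3 of both genotypes. Markers of root, epidermis and seed were found in all these libraries. Of the green tissue markers, 31 photosynthesis genes summed to 340.4 to 528.7 CPM, and *LHCB1.1*, a light-harvesting protein gene with near-identical copies, stood at 0.193 to 0.37 CPM in *tt19-8*.

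**Figure D1:**
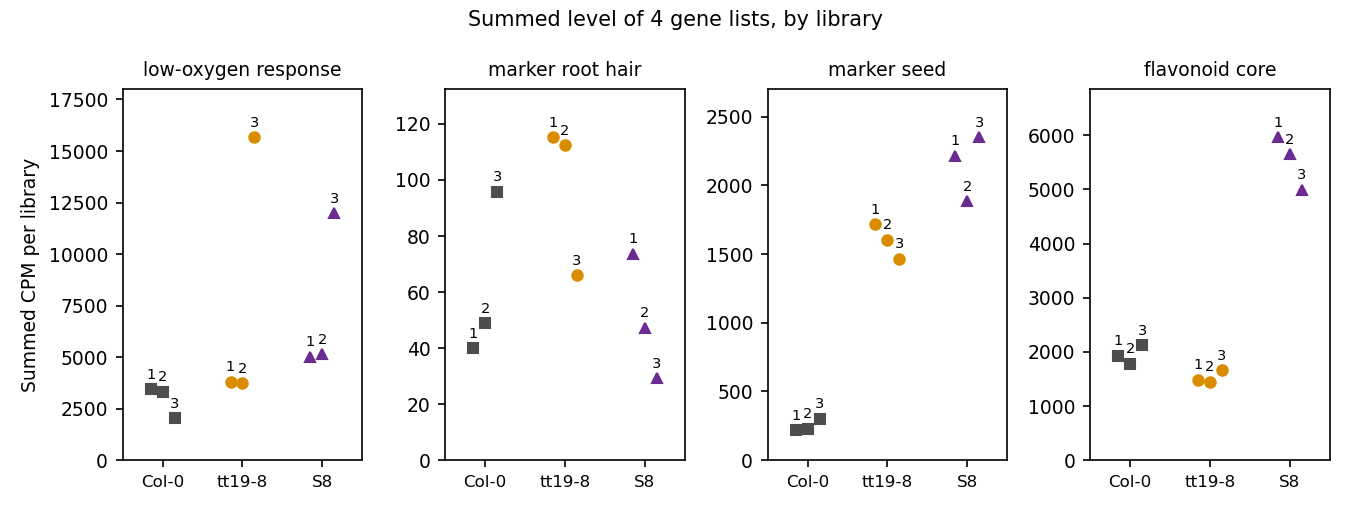
Summed CPM per library (vertical axes, from 0) of the low-oxygen, root hair, seed and flavonoid core lists in Col-0, *tt19-8* and S8, with the replicate number above each point. Replicate 3 is far above replicates 1 and 2 for low-oxygen genes in *tt19-8* (15660 CPM) and S8 (11970 CPM), and for the flavonoid core all S8 libraries (4997 to 5962 CPM) lie above all others.

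Of 22089 genes tested, 5659 (25.6%) differed between S8 and *tt19-8* at an adjusted p under 0.05 (edgeR quasi-likelihood test). They were split nearly evenly, with 2775 higher (12.6%) and 2884 lower (13.1%) in S8, and the median log2 fold change of all genes tested was -0.02. Without replicate 3 of both genotypes, 4454 of 22386 genes (19.9%) were called, 2268 higher (10.1%) and 2186 lower (9.77%). Of the genes called with all libraries, 1993 higher and 1996 lower genes were also called without replicate 3, and 0 were called in the opposite direction. At least 2-fold changes were found in 721 higher and 856 lower genes, and at least 8-fold changes in 106 and 111. In 8154 genes (36.9%) all 3 libraries of a genotype lay on one side of all 3 of the other. Called genes were spread over the genome, with 24.9% to 26.1% of the tested genes of each of the 5 chromosomes. In bulk seedlings, fewer cells of a type and less RNA per cell cannot be told apart.

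The mutated genes were examined first. *RDR6* stood at 32.1, 29.0 and 24.7 CPM in *tt19-8* and at 10.2, 10.1 and 10.9 CPM in S8. All S8 libraries lay below all *tt19-8* and Col-0 libraries (29.7 to 30.9 CPM), and the log2 fold change against *tt19-8* was -1.46 ± 0.12 (*SE*; adjusted p 4.47e-08). The partners of *RDR6* were near their parental level: *SGS3*, which protects *RDR6* substrates, had a log2 fold change of -0.17 (adjusted p 0.501) and *DCL4*, which dices the *RDR6* product, also of -0.17 (adjusted p 0.246). *TT19* stood at 0.936, 1.17 and 1.54 CPM in *tt19-8* and at 2.78, 5.47 and 4.13 CPM in S8. It rose by 1.76 ± 0.27 on the log2 scale (adjusted p 6.2e-05), without overlap between the groups, yet both genotypes lay far below the 125 to 133 CPM of Col-0. A part of *TT19* (8.67% of its length) overlaps the neighbouring gene *AT5G17230*.

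Among the 20 genes of the small RNA machinery, 2 rose and 3 fell, which is 25% and close to the background of 25.6%. The fallers beside *RDR6* were *DCL2*, a second Dicer that makes siRNAs, and *AGO1*, the main effector of microRNAs. *DCL2* stood at 54.6, 61.1 and 61.3 CPM in *tt19-8* and at 38.7, 39.8 and 40.1 CPM in S8 (-0.58 ± 0.10 on the log2 scale, adjusted p 0.000156). *AGO1* fell by 0.27 on the log2 scale (adjusted p 0.00423), a call that was lost without replicate 3 of both genotypes (adjusted p 0.066). *AGO2*, an antiviral Argonaute, rose by 0.29 (adjusted p 0.016), and the RNA methyltransferase gene *HEN1* by 0.34 (adjusted p 0.0209), of which the second was lost without replicate 3 (adjusted p 0.282).

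The tasiRNA precursors did not move as a group. *TAS4* and *TAS1C*, 2 of the 6 precursors (33.3% called, against 25.6% of all genes), were higher in S8. *TAS4* stood at 7.16, 6.08 and 5.97 CPM in *tt19-8* and at 35.6, 48.1 and 40.1 CPM in S8, while Col-0 held 8.29 to 10.8 CPM. Every S8 library was above every library of both other genotypes, and the log2 fold change against *tt19-8* was 2.69 ± 0.21 (adjusted p 2e-08). *TAS1C* stood at 6.36, 7.44 and 6.94 CPM in *tt19-8* and at 11.1, 17.38 and 14.3 CPM in S8 (1.04 ± 0.24 on the log2 scale, adjusted p 0.00301). The other 4 did not pass the test: log2 fold changes were 0.35 for *TAS2* (adjusted p 0.0696), -0.16 for *TAS1A*, -0.18 for *TAS1B* and 0.00 for *TAS3*. The median of the 6 precursors was 0.18, against -0.02 for all genes.

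The mRNAs that carry the sites printed above divided in the same uneven way. *PAP1*, the main MYB activator of anthocyanin genes, stood at 24.8, 24.6 and 22.8 CPM in *tt19-8* and at 89.4, 87.5 and 86.3 CPM in S8. The Col-0 libraries (43.5 to 47.1 CPM) lay between them, and *PAP1* rose by 1.87 ± 0.20 on the log2 scale against *tt19-8* (adjusted p 1.49e-06) and by 0.96 ± 0.20 against Col-0 (adjusted p 0.0011). *PAP2* rose by 1.07 ± 0.21 (adjusted p 0.000838), from 14.3, 14.9 and 16.6 CPM to 28.9, 30.2 and 36.8 CPM. *MYB113* was low in both genotypes, at 0.74 to 1.52 CPM in *tt19-8* and 1.23 to 2.62 CPM in S8, and its log2 fold change of 0.55 did not pass the test (adjusted p 0.235).

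Of the auxin response factors that *TAS3* small RNAs target, *ARF4* was higher in S8. *ARF4*, a repressor-type factor of leaf polarity, stood at 47.6, 49.0 and 48.1 CPM in *tt19-8* and at 90.9, 92.4 and 84.8 CPM in S8. The spread within each genotype was far smaller than this step, with a log2 fold change of 0.89 ± 0.08 (adjusted p 6.28e-08). *ARF3*, with the same letters in its site, had 11.98, 12.4 and 11.7 CPM in *tt19-8* and 17.1, 13.8 and 14.4 CPM in S8. Its groups did not overlap, but the log2 fold change of 0.33 ± 0.12 missed the threshold (adjusted p 0.0562), and *ARF2* had a log2 fold change of -0.11 (adjusted p 0.284). Of 14 leaf polarity genes, 3 rose and 1 fell, which is 28.6% and close to the 25.6% of all genes: beside *ARF4*, *YAB2* rose by 1.18 (adjusted p 7.95e-05) and *AS2* by 0.94 (adjusted p 0.0108) on the log2 scale, while *FIL* fell by 0.31 (adjusted p 0.00545), a call lost without replicate 3 of both genotypes (adjusted p 0.0589).

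The HTT genes, which bear sites for TAS1 small RNAs and act in heat tolerance, held the largest changes of this pathway. *HTT1* stood at 0.413, 0.599 and 0.541 CPM in *tt19-8* and at 7.3, 8.55 and 8.3 CPM in S8, a log2 fold change of 3.94 ± 0.35 (adjusted p 1.33e-07). *HTT4* rose by 4.30 ± 0.45 (adjusted p 1.07e-06), from 0.248, 0.138 and 0.142 CPM to 3.45, 3.04 and 3.94 CPM. *HTT2* rose by 1.25 ± 0.17 (adjusted p 1.52e-05), from 13.5 to 14.0 CPM to between 31.1 and 35.7 CPM. In each of these 3 genes the S8 libraries lay above all *tt19-8* and Col-0 libraries. *HTT3* (log2 fold change 0.05, adjusted p 0.851) and *HTT5* (1.1, adjusted p 0.244) did not pass the test, and the median of the 5 genes was 1.25. These genes are relatives of one another, and how reads shared between them were counted is not stated.

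**Figure D2:**
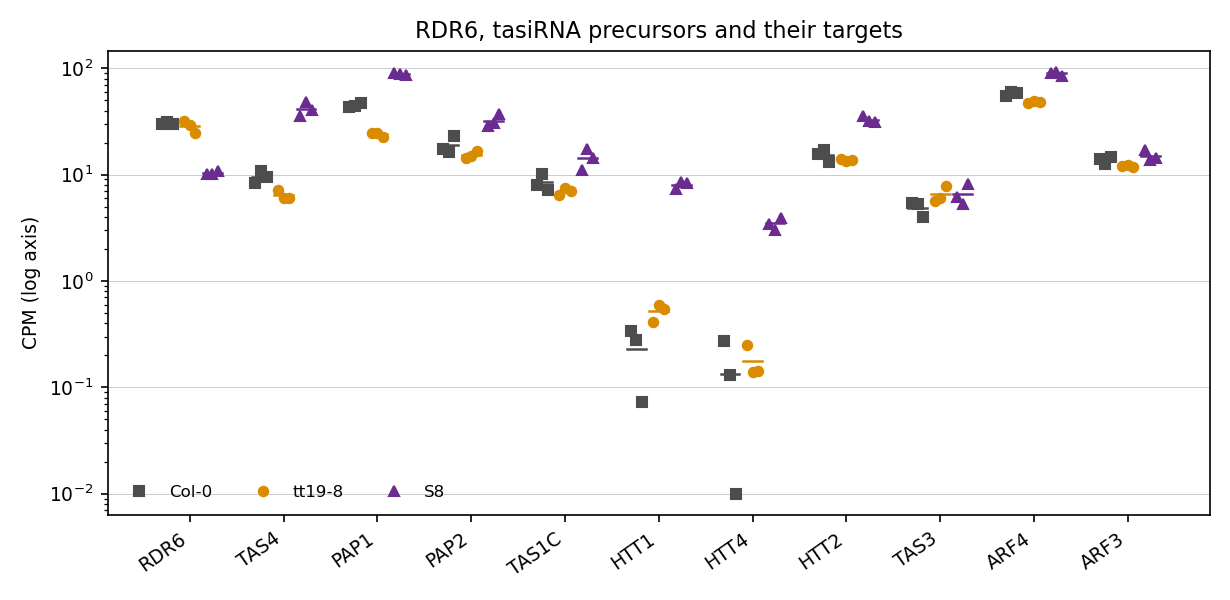
CPM per library (vertical log axis) of *RDR6*, 3 tasiRNA precursors and 7 of their target genes in Col-0 (squares), *tt19-8* (circles) and S8 (triangles), with bars at the means of 3 libraries and values of 0 drawn at 0.01. *RDR6* lies lower in S8 (10.1 to 10.9 CPM), and *TAS4* (35.6 to 48.1 CPM), *PAP1* and the 3 HTT genes lie higher than in both other genotypes, while *TAS3* overlaps.

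A group of pentatricopeptide repeat genes of the RNA processing factor type, mitochondrial RNA-binding proteins that are known sources of secondary siRNAs, had 5 of 12 members higher and 0 lower (median 0.32). This was 41.7% called, against 25.6% of all genes tested. *RPF3* stood at 7.49, 6.86 and 6.69 CPM in *tt19-8* and at 11.4, 11.2 and 11.9 CPM in S8 (0.71 ± 0.14 on the log2 scale, adjusted p 0.00058). Of the 4 *TIR1/AFB* auxin receptors, whose mRNAs are targets of miR393 and give rise to secondary siRNAs, *AFB2* fell by 0.22 (adjusted p 0.0161). That is 25% called, close to the 25.6% of all genes tested. Without replicate 3 of both genotypes, 0 were called by edgeR (adjusted p of *AFB2* 0.0595).

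Genes of the pigment pathway were higher in S8 at most steps. In the general phenylpropanoid steps and the supply of malonyl-CoA, 7 of 11 genes rose and 0 fell (63.6% called, against 25.6% of all genes, median 0.64). *PAL1* and *PAL2*, the main phenylalanine ammonia-lyases that open the pathway, rose by 0.91 ± 0.17 (adjusted p 0.000378) and 1.2 ± 0.14 (adjusted p 3.5e-06) on the log2 scale. Among the 4-coumarate:CoA ligase genes, the flavonoid isoform *4CL3* rose from 32.4, 30.9 and 32.7 CPM to 158, 151 and 127 CPM (2.18 ± 0.18, adjusted p 3.33e-08). The log2 fold changes of *4CL2* (0.02), which serves lignin, and of *4CL5* (-0.14) did not pass the test, nor did that of *4CL1* (adjusted p 0.997). Both cytosolic acetyl-CoA carboxylase genes, which make malonyl-CoA for chalcone synthase, were higher, *ACC1* by 0.64 (adjusted p 2.26e-05) and *ACC2* by 1.39 (adjusted p 1.26e-05). In the supply of phenylalanine itself, 8 of 13 shikimate and arogenate genes rose and 0 fell (61.5% called), with small changes (median 0.25). The arogenate dehydratase genes *ADT3* and *ADT4* rose by 0.69 (adjusted p 1.56e-06) and 0.74 (adjusted p 0.000613).

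In the flavonoid core, 6 of 7 genes rose and 0 fell (85.7% called, against 25.6% of all genes, median 1.76). The disrupted gene *TT19* is 1 of these 6, and its log2 fold change (1.76) is the list median. Its remaining transcript averaged 4.13 CPM in S8, against 128 CPM in Col-0. Chalcone synthase (*TT4*), the first committed step, stood at 1038, 978 and 1225 CPM in *tt19-8* and at 3269.6, 2879.9 and 2594 CPM in S8 (1.43 ± 0.14 on the log2 scale, adjusted p 3.37e-07). Chalcone isomerase (*TT5*) rose by 1.57 ± 0.15 (adjusted p 2.33e-07) and flavonoid 3'-hydroxylase (*TT7*) by 2.21 ± 0.19 (adjusted p 5.58e-08). The later steps, which lead only to anthocyanins and tannins, had the larger values: dihydroflavonol reductase (*TT3*) went from 169, 173 and 153 CPM to 1247, 1325 and 1152 CPM (2.91 ± 0.16, adjusted p 2.71e-10). Anthocyanidin synthase (*LDOX*) rose from 73.4, 79.5 and 65.1 CPM to 565, 579.9 and 498 CPM (2.91 ± 0.22, adjusted p 1.43e-08). In all 5 of these genes the S8 libraries lay above the highest *tt19-8* and Col-0 library. Flavanone 3-hydroxylase (*TT6*) was listed at 0.0551 to 0.379 CPM in both genotypes and did not pass the test (1.55 ± 0.65, adjusted p 0.0844). Since 94.5% of its length overlaps the antisense gene *AT3G51238*, its level cannot be read from these counts.

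All 8 anthocyanin modification genes were higher in S8 than in *tt19-8* (100% called, against 25.6% of all genes, median 2.41 against -0.02). They attach sugars and acyl groups to cyanidin. *UGT79B1*, the xylosyltransferase, stood at 62.3, 55.9 and 46.8 CPM in *tt19-8* and at 435, 387 and 344 CPM in S8 (2.82 ± 0.21, adjusted p 1.43e-08), and Col-0 at 112 to 128 CPM. The sinapoyltransferase gene *SAT* rose from 22.8, 24.2 and 20.1 CPM to 112, 125 and 104 CPM (2.35 ± 0.18, adjusted p 1.43e-08). The coumaroyltransferases *3AT1* and *3AT2* rose by 2.48 and 2.77, the glucosyltransferase *UGT75C1* by 2.48 and the malonyltransferase *5MAT* by 2.16, each with an adjusted p of 6.61e-08 or less. The smallest changes were those of *UGT84A2*, which makes sinapoylglucose (0.56 ± 0.11, adjusted p 0.000613), and of the glucosyltransferase *BGLU10* (0.47 ± 0.07, adjusted p 7.77e-05). Against Col-0, which has a working *TT19*, 6456 genes (29.2%) differed, 3278 higher (14.8%) and 3178 lower (14.4%) in S8. The 8 modification genes were higher in this comparison too, by 0.29 (*BGLU10*, adjusted p 0.00563) to 2.01 (*3AT2*, adjusted p 4.04e-06).

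**Figure D3:**
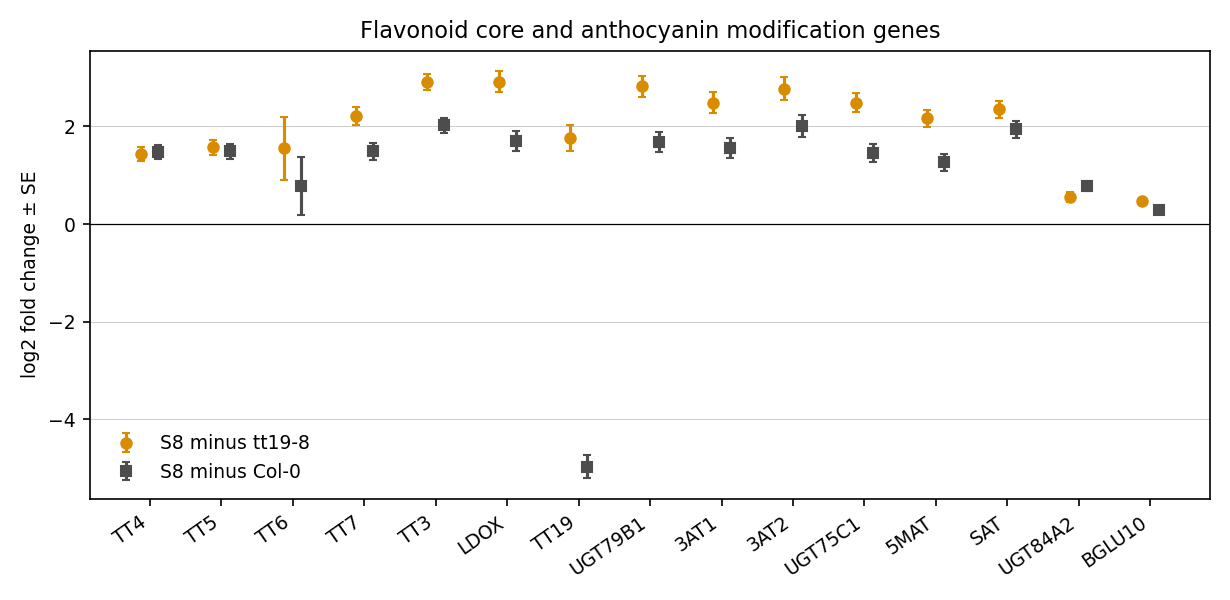
Log2 fold change ± *SE* (vertical axis) of the 7 flavonoid core (*TT19* included) and 8 anthocyanin modification genes, in order of the pathway, for S8 against *tt19-8* (circles) and against Col-0 (squares). All values lie above 0 except *TT19* against Col-0 (-4.97), and *TT6* has the widest error.

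The upstream 250 bases of 2 anthocyanin modification genes are shown because these promoters hold motifs of the kinds searched for. These were the G-box (CACGTG), AC element I (ACCTACC), AC element II (ACCAACC) and AC element III (ACCTAAC), on both strands, from 250 bases before to 50 after the start. Capitals mark the motifs. In *SAT* (chr2:9791916-9792165, plus strand) AC element II and a G-box share 1 base.
*SAT* upstream: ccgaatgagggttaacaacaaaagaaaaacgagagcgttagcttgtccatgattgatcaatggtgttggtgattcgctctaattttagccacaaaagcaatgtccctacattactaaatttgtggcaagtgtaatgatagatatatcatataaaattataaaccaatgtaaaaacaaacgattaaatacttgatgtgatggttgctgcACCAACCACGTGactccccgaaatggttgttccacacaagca
In *UGT79B1* (chr5:21938397-21938646, minus strand) there are 2 G-boxes.
*UGT79B1* upstream: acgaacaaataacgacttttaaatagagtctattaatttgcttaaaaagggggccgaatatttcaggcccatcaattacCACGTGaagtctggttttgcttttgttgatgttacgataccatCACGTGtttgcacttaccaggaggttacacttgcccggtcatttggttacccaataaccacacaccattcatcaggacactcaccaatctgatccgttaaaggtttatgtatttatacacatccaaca
A G-box was found in 6 of the 15 promoters of both lists (40%) and in 2107 of 27443 promoters of protein-coding genes (7.68%). The 6 were 4 of 7 flavonoid core and 2 of 8 anthocyanin modification promoters. AC element II was found in 3 of 15 (20%) against 3.29% of all. AC elements I and III were found in 0 of 15 against 1.38% and 2.88%. These counts are descriptions of letters and not of binding.

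Regulators moved in both directions, with 6 of 14 higher and 2 lower (57.1% called, against 25.6% of all genes, median 0.34). The 6 include the tasiRNA precursor *TAS4*, already described above. *TT8*, the bHLH partner in the pigment complex, rose from 11.4, 13.3 and 11.5 CPM to 69.4, 59.3 and 54.0 CPM (2.33 ± 0.15, adjusted p 3.99e-09), whereas its relative *EGL3* fell from 16.8, 19.2 and 16.2 CPM to 7.9, 10.1 and 8.68 CPM (-0.97 ± 0.12, adjusted p 7.16e-06). The groups did not overlap in either gene. *MYBL2*, a repressor of the same complex, rose along with the activators, from 3.61, 3.66 and 2.16 CPM to 22.8, 22.0 and 23.56 CPM (2.85 ± 0.21, adjusted p 1.43e-08). *TTG2*, a WRKY factor, rose by 0.99 (adjusted p 1.9e-06), and *TTG1*, the WD40 member, had a log2 fold change of 0.12 (adjusted p 0.309). *MYB11*, a flavonol regulator, fell by 0.86 (adjusted p 0.0206), a call lost without replicate 3 of both genotypes (adjusted p 0.0801).

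The branches that share precursors with anthocyanins were changed unevenly. Of 14 flavonol genes, 5 rose and 2 fell (50% called, against 25.6% of all genes, median 0.06), or 3 and 2 without replicate 3 of both genotypes. Flavonol synthase (*FLS1*) had 68.0, 66.8 and 72.4 CPM in *tt19-8* and 77.4, 76.6 and 61.2 CPM in S8, with overlap (0.05 ± 0.13, adjusted p 0.8). The largest rise in this list was that of *BGLU1*, a glycoside hydrolase family 1 gene, from 1.18, 0.898 and 0.455 CPM to 99.7, 112 and 90.06 CPM (6.88 ± 0.46, adjusted p 4.34e-09). *UGT78D2*, the 3-O-glucosyltransferase of both flavonols and anthocyanins, rose by 2.06 ± 0.18 (adjusted p 6.61e-08). Proanthocyanidin genes, known mostly from the seed coat, had 3 of 4 members higher (75% called). *AHA10*, a proton pump, went from 2.73, 1.73 and 1.54 CPM to 40.7, 43.0 and 33.0 CPM (4.29 ± 0.40, adjusted p 2.08e-07). *TT12*, the vacuolar transporter, was at 0 to 0.114 CPM in *tt19-8* and 1.96 to 2.88 CPM in S8 (5.05 ± 0.73, adjusted p 5.21e-05), and the laccase gene *TT10* rose by 1.98 (adjusted p 1.05e-08). Of 16 monolignol and sinapate genes, 4 rose and 4 fell (50% called, median -0.05). *F5H1* rose by 1.34 (adjusted p 4.04e-07), and *REF1*, which makes ferulate and sinapate, fell by 0.71 (adjusted p 8.76e-05).

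Among the phi-class glutathione S-transferases, the family of *TT19*, 5 of 12 were higher and 0 lower (41.7% called, against 25.6% of all genes, median 0.58). *GSTF5* stood at 0.799, 0.875 and 0.854 CPM in *tt19-8* and at 14.3, 10.6 and 10.1 CPM in S8, with Col-0 at 1.40 to 2.22 CPM (3.79 ± 0.35 against *tt19-8*, adjusted p 1.66e-07). *GSTF6* rose from 418, 427 and 625 CPM to 2267, 2649.6 and 2675 CPM (2.37 ± 0.19, adjusted p 2e-08), and its neighbour *GSTF7* by 1.41 (adjusted p 1.5e-05). All S8 libraries were above all *tt19-8* and Col-0 libraries in these 3 genes. *GSTF6* and *GSTF7* are near-identical copies, so the split of reads between them is uncertain.

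The largest single rises lay outside these lists and were mostly genes close to 0 in *tt19-8*. *AT1G56100*, of the invertase and pectin methylesterase inhibitor family, stood at 0, 0.023 and 0 CPM in *tt19-8* and at 24.6, 30.9 and 21.1 CPM in S8, at least 326-fold higher than the floor of 3 counts per library. *AT5G55320*, a membrane-bound O-acyltransferase gene, was at 0 in all *tt19-8* libraries and at 5.69, 6.01 and 4.7 CPM in S8, at least 69.8-fold higher. A serine carboxypeptidase-like gene (*scpl39*) was at least 63.6-fold higher and the avirulence-induced gene *AIG1* at least 38.3-fold higher, both from 0 counts. *AT3G49270*, an extensin-like gene, went from 0.331, 0 and 0.0285 CPM to 59.4, 54.1 and 57.8 CPM (8.94 ± 0.80, adjusted p 1.27e-07), and the lipid transfer protein gene *LTP6* from 1.43, 1.57 and 2.13 CPM to 50.4, 59.1 and 61.2 CPM (5.06 ± 0.47, adjusted p 2.08e-07). In CPM the largest rises beside the pigment genes and *GSTF6* were those of *EXT4*, an extensin (1409, 1329 and 1592 to 4275, 2931 and 3358 CPM), *XTH24*, a xyloglucan-modifying enzyme, and *NIA1*, a nitrate reductase. *EXT4* was not higher than in Col-0, where it stood at 2339 to 3641 CPM.

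Among the largest falls were *AGP30* and *TIP2;3*, both known from roots. *AGP30*, an arabinogalactan protein, stood at 10.2, 8.96 and 3.16 CPM in *tt19-8* and at 0 in all S8 libraries, at least 72.4-fold lower. *TIP2;3*, an aquaporin of the vacuole membrane, went from 16.1, 12.6 and 2.48 CPM to 0.0335, 0 and 0 CPM, at least 101-fold lower, and *AT5G46900*, a lipid transfer-like gene, was at least 227-fold lower. In each of these genes *tt19-8* replicate 3 was the lowest *tt19-8* library, and all 3 were called with and without replicate 3. These genes were also low in Col-0: *AGP30* was at 0, 0 and 0.464 CPM and *TIP2;3* at 0.588, 0.323 and 4.69 CPM. *MRN1*, the marneral synthase gene, fell from 15.6, 16.0 and 0.427 CPM to 0.0385 to 0.167 CPM (-6.83 ± 1.09, adjusted p 9.58e-05). In CPM the largest falls included *NIP5;1*, the boric acid channel, from 1401, 1358 and 1214 CPM to 432, 493 and 412 CPM (-1.57 ± 0.10, adjusted p 2.26e-09), and *JAL22*, a jacalin-related lectin, from 1125, 1171 and 962 CPM to 346, 302 and 244 CPM (-1.87 ± 0.21, adjusted p 1.97e-06).

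Root markers were examined beside these falls. Of 7 root markers, 0 rose and 3 fell (42.9% called, against 25.6% of all genes, median -0.41). The fallers were *TIP2;3*, *CASP1* (169.7, 167 and 166 CPM against 114, 119 and 107 CPM) and *CASP2*, the last 2 of the Casparian strip. The stem cell niche and transport genes *SHR*, *SCR* and *PIN2* had log2 fold changes of 0.03, 0.01 and -0.01, none past the test. The remaining marker, also not called, was at or below the list median. The summed level of the 7 markers was 370.3 to 415.2 CPM in S8, 460.4 to 484.8 CPM in *tt19-8* and 476.5 to 490.3 CPM in Col-0. Of 5 root hair markers, 4 fell (80% called, median -1.04), but 2 of 5 were called without replicate 3 of both genotypes. *COBL9* was at 22.7, 22.6 and 13.6 CPM in *tt19-8* and 11.9, 11.3 and 5.49 CPM in S8 (-1.04 ± 0.25, adjusted p 0.00319). The sum of the 5 was 29.21 to 73.76 CPM in S8, 65.95 to 115.2 CPM in *tt19-8* and 39.96 to 95.86 CPM in Col-0. The part of root and root hair tissue in the falls was not tested.

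Iron genes were the nutrient list with the most falls: 13 of 25 fell and 1 rose (56% called, against 25.6% of all genes). The median was -0.68, and 11 fell without replicate 3 of both genotypes. *IRT1*, the root iron importer, stood at 16.3, 18.5 and 1.85 CPM in *tt19-8* and at 0.268, 0.154 and 0.189 CPM in S8 (-5.88 ± 0.73, adjusted p 7.02e-06). The bHLH factors of the iron deficiency response were lower together: *FIT* by 2.77, *BHLH38* by 2.89, *BHLH39* by 2.57, *BHLH100* by 2.33 and *BHLH101* by 2.76 on the log2 scale, each with an adjusted p of 0.000183 or less and with all S8 libraries below all *tt19-8* and Col-0 libraries. *BHLH38* had 15.1, 16.5 and 11.5 CPM in *tt19-8* and 1.04, 2.74 and 2.08 CPM in S8, and 31.9% of its length overlaps the gene *AT3G56960*. The peptide genes *IMA1* and *IMA2*, which act upstream of them, fell by 1.06 (adjusted p 0.00131) and 1.21 (adjusted p 0.000135). *FRO2*, the ferric reductase, fell by 0.31 (adjusted p 0.0373), a call lost without replicate 3 (adjusted p 0.207), and the ferritin gene *FER1* rose by 0.42 (adjusted p 0.0168), with 63.6% of its length overlapping *AT5G01595*. The root marker sum given above was also lower in every S8 library than in every *tt19-8* library, while the root hair sums of the genotypes overlapped. Within *tt19-8*, replicate 3 had the lowest *IRT1* (1.85 CPM). It also had the highest root marker sum (484.8 CPM) and the lowest root hair sum (65.95 CPM, against 115.2 and 112.5 CPM). The part of root and root hair tissue in these falls was not tested.

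**Figure D4:**
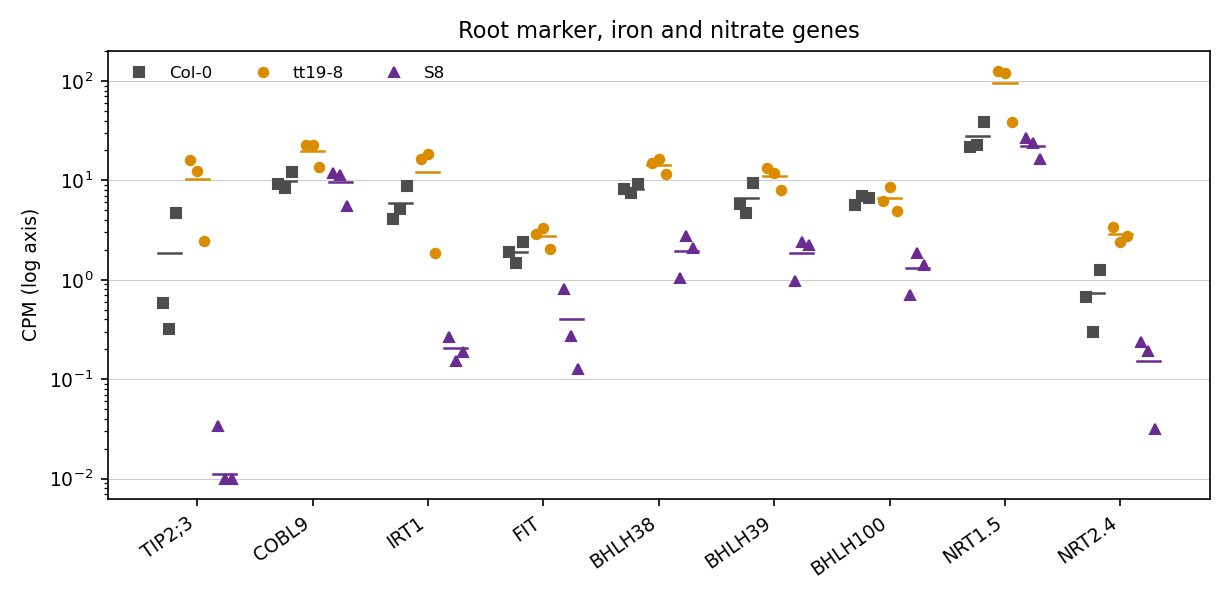
CPM per library (vertical log axis) of 1 root marker, 1 root hair marker, 5 iron genes and 2 nitrate transporter genes in Col-0 (squares), *tt19-8* (circles) and S8 (triangles), with bars at the means of 3 libraries and values of 0 drawn at 0.01. The iron genes are lower in every S8 library than in every other library, while *COBL9* and *NRT1.5* in S8 (*NRT1.5* 16.3 to 26.8 CPM) overlap with Col-0.

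Nitrate genes changed in both directions, with 6 of 17 higher and 3 lower (52.9% called, against 25.6% of all genes, median 0.20). Among the genes of assimilation, nitrite reductase (*NIR1*) rose from 43.0, 46.1 and 53.9 CPM to 93.4, 85.0 and 90.06 CPM (0.91 ± 0.10, adjusted p 2.33e-06), and the nitrate reductases *NIA1* and *NIA2* by 0.62 (adjusted p 0.00445) and 0.71 (adjusted p 0.00766). Of the transporters, *NRT1.8*, which takes nitrate out of the xylem, rose by 2.76 ± 0.36 (adjusted p 1.2e-05), and *NRT1.5*, which loads it into the xylem, fell by 2.1 ± 0.48 (adjusted p 0.00243). *NRT1.5* was at 126, 121 and 38.6 CPM in *tt19-8* and 26.8, 23.62 and 16.3 CPM in S8. The high-affinity transporter *NRT2.4* fell from 2.42 to 3.39 CPM to between 0.0315 and 0.234 CPM (-4.23 ± 0.68, adjusted p 0.000109). Phosphate starvation genes had 3 of 22 higher and 7 lower (45.5% called, median -0.15), 1 and 4 without replicate 3. The noncoding RNA gene *AT4* fell from 67.8, 72.9 and 86.9 CPM to 28.5, 25.7 and 29.3 CPM (-1.45 ± 0.20, adjusted p 1.89e-05), close to the 21.4 to 27.7 CPM of Col-0. Sulfur genes had 3 of 17 higher and 3 lower (35.3% called), and 1 and 4 without replicate 3.

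Jasmonate and salicylate genes were mostly higher where they changed. In the jasmonate list 12 of 23 rose and 1 fell (56.5% called, against 25.6% of all genes, median 0.48). The lipoxygenase gene *LOX3*, at the start of jasmonate synthesis, stood at 9.67, 7.78 and 8.56 CPM in *tt19-8* and at 34.6, 28.9 and 32.8 CPM in S8 (1.89 ± 0.17, adjusted p 1.83e-07). The repressor gene *JAZ1* rose from 149, 149 and 118 CPM to 352, 317 and 309.8 CPM (1.23 ± 0.14, adjusted p 3.37e-06), and the marker *CORI3* by 2.54 ± 0.34 (adjusted p 1.38e-05), whereas *VSP1*, a vegetative storage protein gene, fell by 2.08 ± 0.55 (adjusted p 0.00714). In the salicylate list 6 of 14 rose and 0 fell (42.9% called, median 0.53). *PBS3*, the enzyme that conjugates isochorismate with glutamate, went from 2.95, 2.39 and 1.25 CPM to 20.98, 26.2 and 38.1 CPM (3.69 ± 0.46, adjusted p 7.37e-06). The regulators *SARD1* and *CBP60G* rose by 3.45 (adjusted p 2.78e-06) and 1.34 (adjusted p 0.000157), but *ICS1*, the synthase upstream of *PBS3*, had a log2 fold change of 0.23 (adjusted p 0.186), and *PR1*, *PR2* and *PR5* were too low to be tested.

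Sugar genes changed in both directions. Of 25 genes for sugar transport and sucrose breakdown, 9 rose and 6 fell (60% called, against 25.6% of all genes). The median was 0.22, and 6 rose without replicate 3 of both genotypes. *SWEET11* and *SWEET12*, which export sucrose, were lower, *SWEET12* from 72.0, 71.4 and 42.3 CPM to 20.4, 22.1 and 12.3 CPM (-1.76 ± 0.44, adjusted p 0.00482) and *SWEET11* by 1.04 (adjusted p 0.00356). The cell wall invertase gene *CWINV1* rose by 0.58 (adjusted p 0.000282), the monosaccharide importer genes *STP4* and *STP13* by 0.53 (adjusted p 0.000355) and 0.40 (adjusted p 0.00052), and *GPT2*, a plastid glucose phosphate carrier, by 0.51 (adjusted p 0.00242). *STP1* fell by 0.76 (adjusted p 0.00151). The sucrose synthase gene *SUS4* stood at 26.4, 27.6 and 539.8 CPM in *tt19-8* and at 56.5, 58.7 and 407 CPM in S8, so that replicate 3 set its mean in both genotypes. With all libraries its log2 fold change was -0.18 ± 0.92 (adjusted p 0.909), without *tt19-8* replicate 3 it was 2.69 (adjusted p 0.0277), and without replicate 3 of both it was 1.08 (adjusted p 0.318). Of 19 starch genes, 1 rose and 2 fell (15.8% called), or 2 and 3 without replicate 3 of both.

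**Figure D5:**
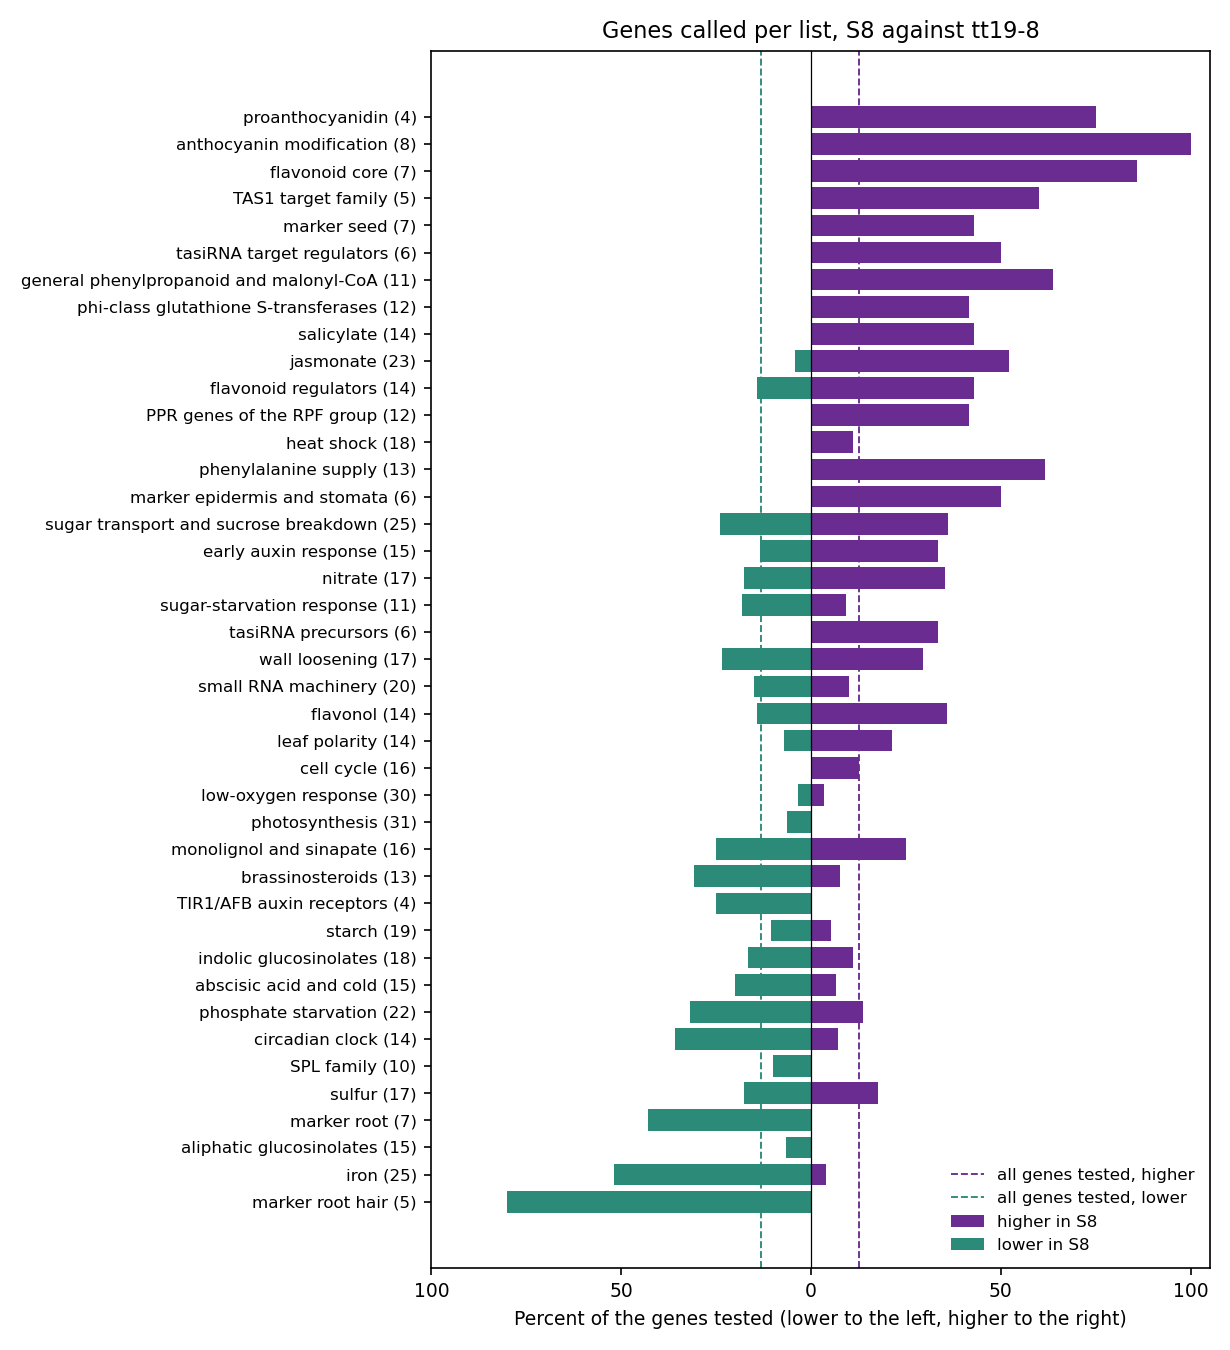
Percent of the genes tested in each list (number in brackets) that were higher (right) or lower (left) in S8 than in *tt19-8* at an adjusted p under 0.05, ordered by the median log2 fold change, with dashed lines at the 12.6% and 13.1% of all genes tested. Pigment lists stand at the top (anthocyanin modification 100% higher), and iron and root hair markers at the bottom.

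In the lists of other processes the share of called genes ran from 6.45% (photosynthesis) to 52.9% (wall loosening), against 25.6% of all genes tested. Of 30 low-oxygen genes, 1 rose (*ARD3*, by 2.51, adjusted p 0.000179) and 1 fell (*AT1G19530*, by 0.81, adjusted p 0.00548). Without replicate 3 of both genotypes 5 rose and 0 fell, and with the replicate number as a block 4 rose and 1 fell. Photosynthesis genes had 0 of 31 higher and 2 lower, aliphatic glucosinolate genes 0 of 15 and 1, SPL genes 0 of 10 and 1, heat shock genes 2 of 18 and 0, and cell cycle genes 2 of 16 and 0. Without replicate 3 of both genotypes, 0 aliphatic glucosinolate and 0 cell cycle genes were called by edgeR. The median of the aliphatic glucosinolate genes was -0.61, though, and -0.39 without replicate 3 of both genotypes. In 10 of the 15 the genotypes did not overlap, against 36.9% of all genes. Their sum was 346.5 to 489.7 CPM in S8, 630.8 to 668.8 CPM in *tt19-8* and 643.5 to 903.6 CPM in Col-0. Indolic glucosinolate genes had 2 of 18 higher and 3 lower: *MYB34*, their regulator, fell from 117, 120.4 and 96.6 CPM to 52.2, 56.5 and 40.5 CPM (-1.16 ± 0.19, adjusted p 0.000139), and *CYP79B3*, the first enzyme from tryptophan, by 1.49 (adjusted p 0.000511). Brassinosteroid genes had 1 of 13 higher and 4 lower. Circadian clock genes had 1 of 14 higher and 5 lower, with *PRR7* lower by 0.57 (adjusted p 0.000438), early auxin response genes 5 of 15 and 2, and wall loosening genes 5 of 17 and 4. Abscisic acid and cold genes had 1 of 15 higher and 3 lower, with *COR47* lower by 1.19 (adjusted p 0.00021), and sugar-starvation genes 1 of 11 and 2, or 2 and 2 with the block. Of 6 epidermis and stomata markers, 3 rose. Of 7 seed markers, 3 rose with all libraries and 0 without replicate 3 of both genotypes (edgeR, adjusted p of *SESA3* 0.066). Their sum was 1886 to 2349 CPM in S8, 1466 to 1716 CPM in *tt19-8* and 219.9 to 303 CPM in Col-0, so that both mutant genotypes stood above Col-0, and the part of seed-derived RNA in the results was not tested.

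S8 was last set directly against S2 and S1, lines from the same *tt19-8* parent with other nonsense changes in *RDR6*. The change in S1 is early and close to that of S8, and the change in S2 is late in the coding sequence. The *tt19-8* libraries entered these tests only through the shared estimate of the spread. Against S2, 2366 genes (10.7%) differed, 1425 higher (6.45%) and 941 lower (4.26%) in S8. This count was 885 when only the 6 libraries of S8 and S2 were fitted, and 3540 without S2 replicate 3. Against S1, 6187 (28%) differed, 3243 higher (14.7%) and 2944 lower (13.3%). *RDR6* was lowest in S8, at 10.4 CPM on average against 19.4 ± 0.41 CPM in S2 and 24.2 ± 0.96 CPM in S1 (SD, n = 3). The differences were -0.89 ± 0.12 (adjusted p 4.4e-05) from S2 and -1.22 ± 0.12 (adjusted p 2.97e-07) from S1 on the log2 scale. The S2 libraries spread widely in *TAS4* (50.4 ± 13.4 CPM), *PAP1* (96.5 ± 33.3), *LDOX* (602.6 ± 169.5) and *GSTF5* (13.6 ± 5.41), so a missing call in these does not show that the lines are alike. From S2, the differences in *TAS4* (-0.29 ± 0.19), *PAP1* (-0.14 ± 0.19), *LDOX* (-0.14 ± 0.20), *TT3* (0.02 ± 0.15), *TT4* (-0.28 ± 0.14) and *GSTF5* (-0.21 ± 0.28) did not pass the test, and *ARF4* was lower by 0.25 ± 0.07 (adjusted p 0.0355). From S1, all 7 of these genes differed: *TT3* was at 1241 CPM in S8 and 293 CPM in S1 (2.08 ± 0.15, adjusted p 5.71e-09), and *TAS4* at 41.3 and 12.5 CPM (1.73 ± 0.20, adjusted p 1.95e-06).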

How the data were processed

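RNA from whole seedlings was sequenced as paired-end reads. The authors checked read quality (FastQC 0.11.5), mapped the reads to TAIR10 (Hisat2) and assigned them to genes (FeatureCounts). Raw counts were deposited, without scaling. Treatment of strand, of multimapping reads and of overlapping genes is not given in the sources used here, so a gene and its antisense or near-identical partner cannot always be told apart.

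Groups were taken from the labels. Counts were analysed with edgeR 4.0.16 in R 4.3.3. After filterByExpr by genotype and TMM scaling, 22089 of 33331 genes were tested and 11242 were not. All 24 libraries entered a single quasi-likelihood fit with genotype as the only factor, tests were two-sided F tests, and p-values were adjusted by Benjamini-Hochberg over all genes tested. The threshold for a call was an adjusted p under 0.05, with no minimum fold. The common coefficient of variation was 14.2%. Fold changes are log2 with *SE*. Where a genotype lay at or under 3 counts in every library, the fold is a lower bound against 3 counts per library. The scripts were tested on simulated counts. Symbols, overlaps and sequences came from RefSeq TAIR10.1, in which 28932 identifiers matched, and promoters were searched for the motifs named.

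The members and gene lists were chosen with earlier results of these data known. Named genes were the largest rises and falls (log2 and CPM) among genes called with and without replicate 3 of both genotypes, with a mean of at least 1 CPM and no overlap, all genes of the pigment, tasiRNA precursor and target lists, and up to 2 called rises and falls of each other list. The genes *FLS1*, *TT8*, *TT10*, *TTG1*, *TTG2*, *PAL1*, *PAL2*, *4CL1*, *4CL2*, *4CL5*, *ACC1*, *AGO1*, *HEN1*, *HTT2*, *HTT3*, *HTT5*, *GSTF7*, *COBL9*, *CASP2*, *SHR*, *SCR*, *PIN2*, *LHCB1.1*, *ICS1*, *LOX3*, *JAZ1*, *CBP60G*, *NIA2*, *SWEET11*, *CWINV1*, *STP1*, *STP4*, *STP13*, *GPT2*, *FIT*, *BHLH39*, *BHLH100*, *BHLH101*, *IMA1*, *IMA2* and *FRO2* were added by role after their values were seen. Same-numbered libraries of S8 and *tt19-8* had correlated deviations (0.22, 0.23 and 0.49 over genes), so the replicate number was also used as a block. Libraries 1 and 2 correlated as much across numbers (0.26 and 0.23), and library 3 negatively with both (-0.40 to -0.29), so this pairing rests on replicate 3 standing apart. Other alternatives were RLE factors, no filter, DESeq2 1.42.0, a threshold of 0.01, a fit of the compared libraries only and leaving out single libraries. Columns of other lines were used only to share the spread, and for S1 and S2.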

Additional observations from a re-analysis of the deposited data

Results flagged for a closer look

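Differences between S8 and the other lines with nonsense changes in *RDR6* are given here because the lines share a mutated gene and a *tt19-8* parent. They come from direct tests within the edgeR fit of all libraries, on the log2 scale. From S2, S8 differed in *RDR6* (-0.894, adjusted p 4.4e-05) and in *ARF4* (-0.247, adjusted p 0.0355), which are 2 of the 8 genes compared. From S1 it differed in all 8: *RDR6* (-1.22), *TAS4* (1.73), *PAP1* (1.35), *ARF4* (0.692), *LDOX* (1.85), *TT3* (2.08), *TT4* (1.11) and *GSTF5* (2.00), with adjusted p-values from 5.71e-09 to 4.02e-05. In all 8 of these genes S8 differed from *tt19-8* as well. Allele and line cannot be told apart here, since each line is a single EMS isolate.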

How the results depend on the processing

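The count of genes that differed between S8 and *tt19-8* (5659) stayed within 1.5 times under other scaling (5691 with RLE), no filter (5330), DESeq2 (6169) and the replicate block (6001). It also did so with only the 6 libraries compared (4094) and with single libraries of S8 or *tt19-8* left out (4337 to 5898). Leaving S2 replicate 3 out of the fit, which alters only the shared spread and scaling, gave 6428. With an adjusted p under 0.01 it was 3450, of which 1803 were higher and 1647 lower. The comparison with S2 gave 885 genes when only the 6 libraries compared were fitted, 1192 with an adjusted p under 0.01 and 1609 to 3540 with single libraries left out, so its size rests on these choices. That with S1 (6187) gave 7726 when only the 6 libraries compared were fitted. It gave 3739 with an adjusted p under 0.01 and 4634 to 5391 with single libraries left out. The cause of these shifts was not tested.

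A replicate block cost 2 of the 153 called named genes their call, *SNG2* (adjusted p 0.0501) and *BGLU30* (adjusted p 0.0705), and 0 genes gained one. Of the 153, 118 kept call and direction under every alternative in which they were tested, at an adjusted p under 0.05. There were up to 14 alternatives per gene, and 12 for *LOX2* and *SULTR1;1*. Counts of calls moved by over 1.5 times under at least 1 alternative in 40 of 82 list counts, and 5 of 41 list medians changed sign. Same-numbered libraries of S8 and S2 correlated by 0.096, 0.22 and 0.35 and those of S8 and S1 by 0.052, -0.018 and 0.0025, not every one over 0.1, so no pairing was assumed. Not every S8 library correlated best with its own number in either comparison. With blocks 2839 and 5824 genes differed.

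Log2 fold changes that changed sign belonged to genes that were not called. *TAS1B* was -0.33 to 0.071 with single libraries left out, the highest without S8 replicate 1. *TAS3* was -0.001203 with no filter, -0.009392 with the block, -0.001367 with the block and only the 6 libraries, -0.19 to 0.15 with single libraries left out, and -0.05344 without replicate 3 of both. *SUS4* was 0.58 with the block, 0.57 with the block and only the 6 libraries, -1.78 (without S8 replicate 3) to 2.69 (without *tt19-8* replicate 3) with single libraries left out, and 1.08 without replicate 3 of both. At these depths genes near 3 counts per library carry wide errors, and the list results with replicate 3 apart rest on 2 libraries per genotype.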
